A study of Mus musculus with 4 samples.

Results

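Compact myelin and oligodendrocyte genes were followed in single nuclei of the hippocampus of wild-type (WT) and Cyfip2+/R87C knock-in (KI) mice. The members were 9 genes, Mbp, Mobp, Mog, Mag, Cnp, Cldn11, Opalin, Mal and Ermn, taken by symbol from the 32285 genes of the deposited count tables, and each symbol matched 1 gene. No member served to define a class of nuclei. KI mice carried 1 copy of the R87C allele of Cyfip2, a model of West syndrome, an infantile epilepsy. Mice were littermates on a C57BL/6N background at postnatal week 28, with 2 mice per genotype, both hippocampi of a mouse in 1 library and 1 library per mouse. The treatment label of KI replicate 2 gives the allele as R88C although the protocol has R87C, and the sample was kept in the KI group by its genotype label.

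Myelin is oligodendrocyte membrane wrapped around an axon and pressed together until little cytoplasm is left. Mbp draws the inner faces of that membrane together, Mobp lies in the same compact layers, Mog sits on the outermost surface, and Mag holds the innermost layer to the axon. Cnp keeps cytoplasmic channels open, Cldn11 seals the layers with tight junctions, Mal is a raft proteolipid that takes part in membrane sorting, Opalin is a membrane glycoprotein, and Ermn binds actin. Oligodendrocytes arise from oligodendrocyte precursor cells (OPC) through committed precursors, and myelin genes are switched on along this path.

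The 250 bases before the transcription start are shown for 4 members. Mog and Mal stand for the opposite orders that the KI mice took in oligodendrocytes, and Opalin and Ermn are the members whose change differed between oligodendrocytes and neurons. Sequences are from RefSeq, build GRCm38.p6, written 5′ to 3′ on the strand of the gene. Capitals mark the letters CTGGCAC or CTGGTAC, which the myelin transcription factor MYRF is known to bind, and ACAAAG or ACAATG, core letters of SOX factors such as SOX10, on either strand.
Mog, chr17:37023399-37023648, minus strand: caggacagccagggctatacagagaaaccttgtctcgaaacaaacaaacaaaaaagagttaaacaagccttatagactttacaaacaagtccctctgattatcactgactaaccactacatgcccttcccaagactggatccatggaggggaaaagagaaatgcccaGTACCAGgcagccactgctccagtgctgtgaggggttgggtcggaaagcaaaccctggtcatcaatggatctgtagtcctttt
Mal, chr2:127656696-127656945, minus strand: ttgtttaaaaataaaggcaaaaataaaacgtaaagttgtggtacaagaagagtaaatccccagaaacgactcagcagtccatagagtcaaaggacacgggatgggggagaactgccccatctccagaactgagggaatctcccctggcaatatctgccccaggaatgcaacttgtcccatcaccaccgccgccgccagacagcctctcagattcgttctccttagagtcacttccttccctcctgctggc
Opalin, chr19:41077114-41077363, minus strand: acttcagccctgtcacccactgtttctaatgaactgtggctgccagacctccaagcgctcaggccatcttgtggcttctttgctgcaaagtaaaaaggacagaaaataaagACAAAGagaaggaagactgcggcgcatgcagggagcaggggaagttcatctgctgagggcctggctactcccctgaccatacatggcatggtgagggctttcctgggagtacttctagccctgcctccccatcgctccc
Ermn, chr2:58052865-58053114, minus strand: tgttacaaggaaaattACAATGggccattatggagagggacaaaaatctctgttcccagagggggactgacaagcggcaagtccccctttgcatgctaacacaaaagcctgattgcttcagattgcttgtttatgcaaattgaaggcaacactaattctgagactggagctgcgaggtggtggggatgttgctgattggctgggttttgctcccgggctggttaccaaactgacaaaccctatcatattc
The MYRF letters occurred once before Mog and not in the windows of Mal, Opalin or Ermn, while the SOX letters occurred once each before Opalin and Ermn. Of the 8 members searched, 3 held the MYRF letters in at least 1 window (Mog, Mag and Cnp), against 6.79% of all 27025 genes with windows of the same length. Mbp was not searched, since windows on its chromosome were left out for the members but not for all genes. SOX letters were found for 5 of 8 (Mobp, Mag, Cnp, Opalin and Ermn), against 28.2% of all genes. Mag has 3 entries, of which 2 held the MYRF letters, and the window of Mobp held 6 SOX matches. These matches describe the letters only.

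The 4 libraries held 12665 to 16055 barcodes and 73009975 to 80913580 UMIs (unique molecular identifiers, each 1 counted transcript), and 52032 nuclei passed all filters. Pairs of libraries shared 35 to 58 barcodes. Nuclei were assigned by summed markers: 1721 and 1073 WT and 1758 and 658 KI nuclei were oligodendrocytes, 53 and 33 WT and 58 and 39 KI nuclei were committed precursors, and 287 and 240 WT and 277 and 195 KI nuclei were OPC, each in the order of replicates 1 and 2. All 10 oligodendrocyte markers were detected in the first class, at a sum of 4860 to 5730 CPM (counts per 1000000 UMIs of that class and library) against 76.2 to 99.1 CPM in neurons. The gate was set on these same markers, so the sums describe the classes and are no test of them. The summed committed precursor markers reached 9580 to 11500 CPM in committed precursors and 490 to 710 CPM in oligodendrocytes. OPC markers stayed high in committed precursors, at 9000 to 11300 CPM against 10800 to 15000 CPM in OPC, and above the committed precursor markers in WT replicate 1, KI replicate 1 and KI replicate 2, so these nuclei carried the markers of both stages. The committed precursor gate did not leave out nuclei that also passed the limits of OPC or oligodendrocytes. Oligodendrocytes made up 11.5% (95% exact binomial interval 11 to 12.1) and 8.67% (8.18 to 9.18) of WT nuclei and 14.7% (14.1 to 15.4) and 5.14% (4.76 to 5.54) of KI nuclei. The KI libraries thus held both the highest and the lowest share, with a mean of 10.1% ± 2.02 (SD, n = 2) for WT against 9.94% ± 6.78 (SD, n = 2) for KI (two-sided exact permutation p = 1.0, where 0.333 is the smallest p this design allows). Without KI replicate 2, KI was 4.63 percentage points higher than WT, and without KI replicate 1 it was 4.96 points lower. Intervals cover counting error only. Malat1, a transcript kept in the nucleus, took 11.7% and 12.3% of oligodendrocyte UMIs in WT and 15.4% and 14.0% in KI, and its part in the results below was not tested.

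On GRCm38, in the GENCODE M21 annotation, the members lie on 8 chromosomes. Mbp spans 110492 bases of chromosome 18 (82475146 to 82585637, plus strand), the longest member gene. Mobp spans 31778 bases of chromosome 9 (120149707 to 120181484, plus strand) and Mog 12656 bases of chromosome 17 (37010743 to 37023398, minus strand). Mag lies on chromosome 7 (30899176 to 30914873, minus strand), Cnp on chromosome 11 (100574904 to 100591729, plus strand), Cldn11 on chromosome 3 (31149920 to 31164324, plus strand) and Opalin on chromosome 19 (41061710 to 41077113, minus strand). Mal and Ermn both lie on the minus strand of chromosome 2, at 127633226 to 127656695 and 58045113 to 58052864, and Ermn is the shortest member gene with 7752 bases. Cnp overlaps Dnajc7 and Ermn overlaps Galnt5, both protein-coding genes on the opposite strand. Mobp overlaps the processed transcript Gm38642 on its own strand, and Mbp and Mog overlap the pseudogene Rpl21-ps8 and the misc_RNA gene Gm22388 on the opposite strand. Whether counting used the strand is not given in the sources used here.

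In oligodendrocytes, none of the 9 members passed edgeR's test for a change in KI with all 4 libraries and the filter on low counts, and the mice of the KI group differed from each other more than KI differed from WT for most members. KI was compared with WT on summed counts by edgeR's quasi-likelihood test, with a log2 fold change of KI over WT, its standard error (SE) and p adjusted by Benjamini-Hochberg over all genes of the class. Of 9 members, 0 had an adjusted p below 0.05 in edgeR or DESeq2, while 98 of all 12767 genes tested (0.768%) were called by edgeR. At an unadjusted p below 0.05 there were 2 members and 1919 of all genes tested, the latter also the background for the lists below. The median log2 fold change was 0.22 over the members and 0.01 over all genes tested. All 9 members passed the filter on low counts. With no filter the count rose to 1 (Mog), where 806 of 22202 genes were called. With 3 libraries the lone sample of a group was assumed to vary like the other group, and those counts are given below beside those of all genes.

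Mog had 581 and 632 CPM in the WT mice and 1186 and 684 CPM in the KI mice. Both KI libraries were above both WT libraries, but KI replicate 1 was far above the other 3, which lay close together. The log2 fold change was 0.71 (SE 0.25, edgeR adjusted p = 0.231), which moved to 0.21 with KI replicate 1 left out and to 1.07 with KI replicate 2 left out. Cldn11 was the other member whose groups did not overlap, with 342 and 323 CPM in the WT mice and 405 and 419 CPM in the KI mice. Here the KI mice were alike, and the log2 fold change was 0.38 (SE 0.15, edgeR adjusted p = 0.287). Over all genes tested in oligodendrocytes, both KI libraries were above both WT libraries in 17.6%, so 2 of 9 members is near the background.

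Mbp, the most abundant member, had 2735 and 2812 CPM in the WT mice and 4260 and 2511 CPM in the KI mice. KI replicate 1 was the highest and KI replicate 2 the lowest of the 4 libraries, with the WT mice in between. Its log2 fold change of 0.37 (SE 0.24, edgeR adjusted p = 0.516) became -0.11 without KI replicate 1 and 0.72 without KI replicate 2. Mag behaved alike with 632 and 668 CPM in the WT mice and 742 and 545 CPM in the KI mice (log2 fold change 0.07, SE 0.19, edgeR adjusted p = 0.906). Ermn had 284 and 267 CPM in the WT mice and 367 and 237 CPM in the KI mice (log2 fold change 0.22, SE 0.22, edgeR adjusted p = 0.692), and Opalin 145 and 157 CPM in the WT mice and 167 and 116 CPM in the KI mice (log2 fold change 0.00, SE 0.21, edgeR adjusted p = 0.995). In each of these 4 genes, KI replicate 1 was the highest library and KI replicate 2 the lowest.

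The 3 remaining members took the opposite order within KI. Mobp had 1251 and 1266 CPM in the WT mice and 1077 and 1519 CPM in the KI mice, with the WT libraries nearly equal and the KI libraries on either side of them (log2 fold change 0.11, SE 0.18, edgeR adjusted p = 0.825). Mal had 625 and 449 CPM in the WT mice and 485 and 654 CPM in the KI mice (log2 fold change 0.15, SE 0.20, edgeR adjusted p = 0.789). Cnp had 213 and 151 CPM in the WT mice and 185 and 224 CPM in the KI mice (log2 fold change 0.23, SE 0.20, edgeR adjusted p = 0.640). Left out in turn, single libraries moved the Cnp value from 0.00 (without WT replicate 2) to 0.50 (without WT replicate 1), and it passed in neither case. For both Mal and Cnp the WT libraries differed more than the KI libraries, by a log2 ratio of 0.48 against -0.43 for Mal and 0.49 against -0.28 for Cnp, with WT replicate 1 and KI replicate 2 the highest.

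**Figure D1:**
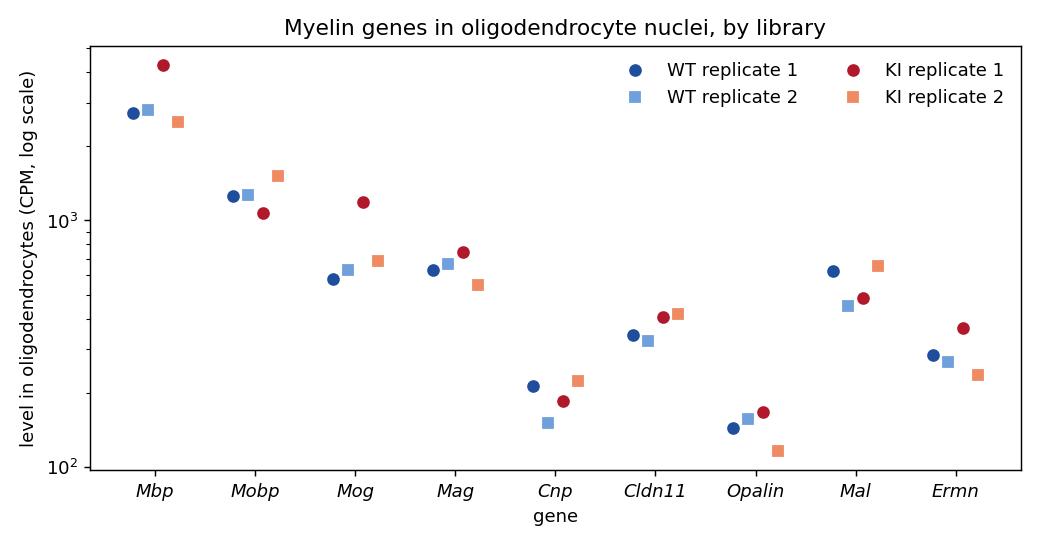
Level of each member in oligodendrocyte nuclei, in CPM on a log scale, with 1 point per library (blue shades for WT, red and orange for KI, circles for replicate 1 and squares for replicate 2). For Mbp, Mag, Opalin and Ermn the KI points enclose the WT points from above and below with KI replicate 1 on top, and for Mobp they do so with KI replicate 2 on top.

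The spread between mice of 1 genotype was described as the log2 ratio of replicate 1 over replicate 2. Between KI mice it ran from -0.50 for Mobp to 0.79 for Mog, with 5 of 9 members higher in KI replicate 1. Between WT mice it ran from -0.12 for Mog and Opalin to 0.49 for Cnp. The median size of this ratio was 0.09 in WT and 0.50 in KI over the members. Over the 3875 genes with a mean of at least 50 CPM in oligodendrocytes it was 0.112 in WT and 0.25 in KI, so oligodendrocytes of the KI mice were less alike in general. The KI ratio was larger in size than the WT ratio for 6 of 9 members and for 72.4% of those genes. By a chi-square over genes, replicates of oligodendrocytes differed by more than counting noise in both genotypes, at 1.84 per degree of freedom in WT and 5.91 in KI, so neither pair was 1 library deposited again.

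**Figure D2:**
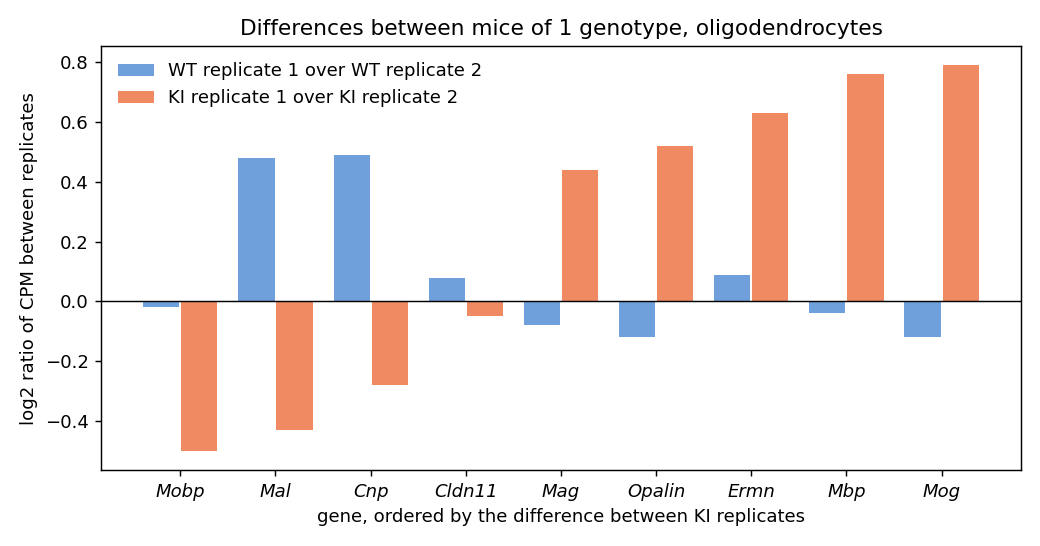
Log2 ratio of CPM between the replicates of WT (blue bars) and of KI (orange bars) in oligodendrocytes, for the members, ordered by the KI ratio. KI bars run from -0.50 (Mobp) to 0.79 (Mog), and WT bars are as large as the KI bars or larger in Mal, Cnp and Cldn11, with both bars of Cldn11 near 0.

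Detection in single nuclei followed the summed levels. To compare it at 1 depth, each nucleus was thinned to 1000 UMIs, which left 1460 and 972 WT and 1568 and 574 KI oligodendrocytes, whose median before thinning and filtering was 1461 to 1585 UMIs. Mbp was then found in 92.6% and 92.5% of WT and 96.8% and 89.0% of KI oligodendrocytes, against 6.67% to 7.72% of neurons. Mog was found in 45.3% and 46.3% of WT nuclei and in 64.6% and 48.8% of KI nuclei, and without thinning in 58.5%, 62.3%, 75.8% and 60.9%. Mobp reached 68.6% and 67.5% in WT and 61.0% and 72.8% in KI. The order of the KI mice was thus the same as in the sums. In neurons, which should lack Mog and Mobp and had a median of 4925 to 6272.5 UMIs before thinning, the thinned shares were 0.645% to 1.16% for Mog and 1.07% to 2.22% for Mobp.

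Along the lineage every member was higher in oligodendrocytes than in OPC in all 4 libraries. Mbp and Mag were raised early: Mbp went from 194 CPM in WT OPC to 2133 CPM in committed precursors and 2774 CPM in oligodendrocytes, and Mag from 68.5 to 202 and 650 CPM (means of 2 libraries). Cnp and Cldn11 were also above their OPC level in committed precursors of all 4 libraries. Mog and Ermn were low until the last stage, with means of 32.7 and 3.38 CPM in WT committed precursors against 607 and 276 CPM in WT oligodendrocytes. The WT means of Mobp, 78.0 and 80.8 CPM, and of Mog, 32.7 and 37.7 CPM, were no higher in committed precursors than in OPC. Opalin was above its OPC level in committed precursors of the same library in all 4 as well, but by little in WT replicate 2 (9.57 against 9.37 CPM). Within a library, Mobp was above OPC in committed precursors of 3 libraries, Mog of 2, Mal of 1 and Ermn of 0. From committed precursors to oligodendrocytes all 9 members were higher within each of the 4 libraries. In the means of each genotype this step was smallest for Mbp, at 1.3 times in WT and 1.67 times in KI. In WT, the ratio of oligodendrocytes to OPC ran from 3.87 for Cnp to 16.1 for Mog, and in KI from 4.66 for Cnp to 13.1 for Mog.

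**Figure D3:**
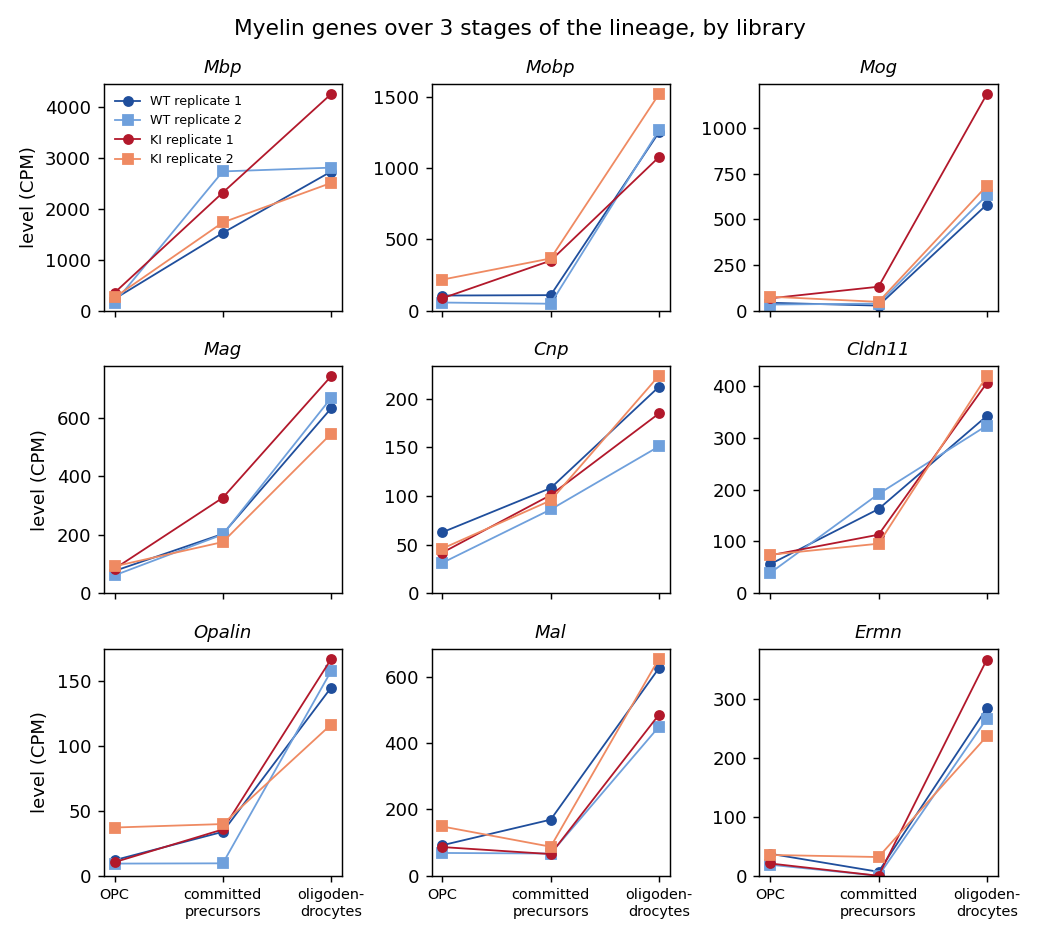
Level in CPM of each member in OPC, committed precursors and oligodendrocytes, 1 line per library, each panel with its own axis from 0. In committed precursors Mbp is already far above its OPC level, but near its oligodendrocyte level in WT replicate 2 alone. Mog and Ermn are far below their oligodendrocyte level there, and the Mobp lines of both KI libraries lie above those of WT.

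In committed precursors, 0 of the 6 members tested were called by edgeR or DESeq2. Over all 2830 genes tested the share called was 0.0%, 251 genes and 1 member had an unadjusted p below 0.05, and Mog, Opalin and Ermn did not pass the filter there. Mobp stood out among the members with 108 and 47.9 CPM in the WT mice and 350 and 366 CPM in the KI mice. The groups did not overlap, which was so with KI above in 15.3% of genes tested in this class, and its log2 fold change was 2.21 (SE 0.41, edgeR adjusted p = 0.182). That value was 2.20 without KI replicate 1, 2.19 without KI replicate 2, 2.93 without WT replicate 1 and 1.815 without WT replicate 2. With all libraries it passed with the replicate block (edgeR adjusted p = 2.95e-05), with no filter (edgeR adjusted p = 0.00276) and at equal depth (edgeR adjusted p = 0.0257). It did not pass with DESeq2, library totals, no doublet removal, at least 1000 genes or scaling by nuclei. The counts behind it were small: 16 and 5 Mobp UMIs in WT against 59 and 46 in KI. Nuclei with at least 1 Mobp UMI were 8 of 53 and 3 of 33 in WT and 9 of 58 and 10 of 39 in KI, so shares of 15.1%, 9.09%, 15.5% and 25.6% differed less than the sums. Most of the KI UMIs sat in few nuclei, with 89.8% of them in 4 nuclei of KI replicate 1 and 89.1% in 6 nuclei of KI replicate 2, each holding at least 3 Mobp UMIs. These nuclei also carried more oligodendrocyte markers, 39.9 and 26.8 per 10000 UMIs against 12.1 and 19.7 in the remaining committed precursors of the same libraries. Their committed precursor markers were higher than in the rest in KI replicate 1 (151 against 93.8 per 10000 UMIs) and lower in KI replicate 2 (71.4 against 103). In WT, 56.2% and 60.0% of Mobp UMIs lay in 2 nuclei and 1 nucleus of this kind, which had 29.9 and 22.9 marker UMIs per 10000 against 18.2 and 21.1 in the rest. The part of this in the Mobp values was not tested.

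The other members tested at this stage had adjusted p from 0.632 to 0.999 in edgeR's test. Mbp had 1528 and 2738 CPM in the WT mice and 2322 and 1734 CPM in the KI mice (log2 fold change 0.01, SE 0.34, edgeR adjusted p = 0.999), and Mag 203 and 201 CPM in the WT mice and 327 and 175 CPM in the KI mice (log2 fold change 0.43, edgeR adjusted p = 0.784). Cldn11 was lower in both KI libraries, 162 and 191 CPM in the WT mice against 113 and 95.5 CPM in the KI mice, a pattern that 24.1% of genes tested in this class showed, and did not pass the test (log2 fold change -0.65, SE 0.38, edgeR adjusted p = 0.632). Mal had 169 and 67.0 CPM in the WT mice and 65.3 and 87.5 CPM in the KI mice, and Cnp was level at 86.2 to 108 CPM in the WT mice and 95.5 to 101 CPM in the KI mice. Mog (27.0 and 38.3 CPM in the WT mice, 131 and 47.7 CPM in the KI mice) and Opalin (33.8 and 9.57 CPM in the WT mice, 35.6 and 39.8 CPM in the KI mice) were also higher in both KI libraries, but were too low to be tested. For the members not tested, the UMIs were 4 and 4 in WT and 22 and 6 in KI for Mog, 5 and 1 in WT and 6 and 5 in KI for Opalin, and 1 and 0 in WT and 0 and 4 in KI for Ermn. The KI effect on Mobp differed between oligodendrocytes and committed precursors in a class-by-genotype term, at -2.15 (SE 0.45, edgeR adjusted p = 0.00461), where 14 of 10119 genes (0.138%) and no other member were called. This term lost its call without KI replicate 1 (-1.89, edgeR adjusted p = 0.0914), WT replicate 1 (-2.88, edgeR adjusted p = 0.103) or WT replicate 2 (-1.71, edgeR adjusted p = 0.843), and in nuclei of at least 1000 genes (-2.07, edgeR adjusted p = 0.233).

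In OPC, 0 of the 8 members tested were called, against 4 of 8920 genes called (0.0448%). At an unadjusted p below 0.05 there were 5 members and 898 genes. DESeq2 gave an adjusted p for 4 of them (Mbp, Mobp, Mag and Mal) and called 0. Opalin did not pass the filter. The median log2 fold change was 0.67 over these members and 0.01 over all genes tested, and 4 members lay higher in both KI libraries, which held for 14.1% of genes tested in OPC. Mog had 42.7 and 32.8 CPM in the WT mice and 67.1 and 76.0 CPM in the KI mice (log2 fold change 1.01, SE 0.27, edgeR adjusted p = 0.252). Mbp had 230 and 158 CPM in the WT mice and 350 and 258 CPM in the KI mice (log2 fold change 0.76, SE 0.23, edgeR adjusted p = 0.317), and Cldn11 56.0 and 39.1 CPM in the WT mice and 73.1 and 74.2 CPM in the KI mice (log2 fold change 0.72, SE 0.27, edgeR adjusted p = 0.411). The fourth was Mag, with 76.0 and 60.9 CPM in the WT mice and 83.5 and 91.8 CPM in the KI mice. Mobp, with 105 and 56.2 CPM in the WT mice and 86.5 and 217 CPM in the KI mice, was high in KI replicate 2 alone (log2 fold change 0.98, SE 0.39, edgeR adjusted p = 0.439, or 0.20 without that library). With no filter the member count in OPC rose to 1 (Mobp), where 126 of 19756 genes were called, and counts with a library left out are given below. Mal (92.1 and 68.7 CPM in the WT mice, 86.5 and 148 CPM in the KI mice), Cnp (62.7 and 31.2 CPM in the WT mice, 41.8 and 45.9 CPM in the KI mice) and Ermn (37.4 and 18.7 CPM in the WT mice, 20.9 and 35.3 CPM in the KI mice) overlapped between the genotypes.

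Droplets also take up free RNA, which was read from neurons. Neurons were gated to hold few oligodendrocyte markers, so this reading may be too low. Per nucleus, OPC held 0.0875 to 0.221 UMIs of Mog, against 0.0332 to 0.0711 in neurons, and 0.15 to 0.631 UMIs of Mobp, against 0.0614 to 0.137 in neurons. Oligodendrocyte markers in OPC came to 4.59 and 2.22 per 10000 UMIs in WT and 3.13 and 4.42 in KI, with all 10 detected, and neuron markers to 28.2 to 34.3. Their part in the OPC values was not tested. For a different genotype effect in oligodendrocytes and OPC, 0 of 9 members passed the class-by-genotype term, with 26 of 11357 genes (0.229%) called by edgeR. At an unadjusted p below 0.05 there were 2 members, Mobp and Opalin, and 857 genes.

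**Figure D4:**
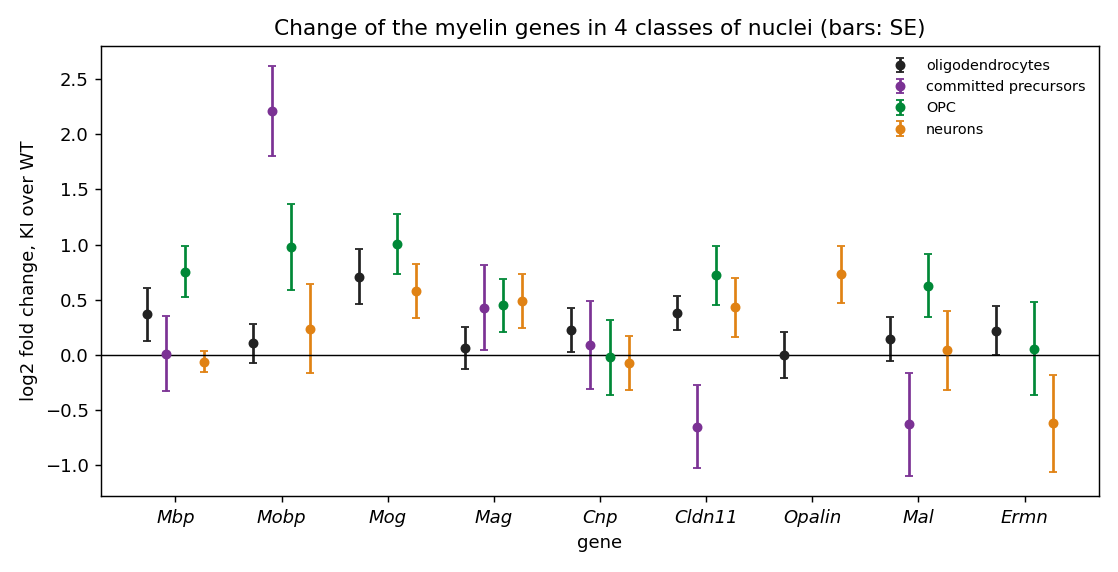
Log2 fold change of KI over WT for each member tested in oligodendrocytes, committed precursors, OPC and neurons, with bars for 1 SE, from 2 libraries per genotype. Mobp in committed precursors is the point farthest from 0, at 2.21, and no point passed an adjusted p of 0.05.

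Neurons make no compact myelin, and member UMIs in them were taken as a reading of free RNA, except those of Mbp. The gate had left nuclei with more oligodendrocyte markers out of the neurons. Nuclei with the most free RNA may thus be missing from this reading, and the size of that effect was not tested. Of 9 members, 0 were called between KI and WT in neurons, by edgeR or DESeq2, where edgeR called 158 of 20652 genes (0.765%). At an unadjusted p below 0.05 there were 1 member and 4875 genes. Mobp had 0.114 and 0.0614 UMIs per neuron in WT and 0.0850 and 0.137 in KI, and Mal 0.214 and 0.135 in WT and 0.146 and 0.237 in KI. WT replicate 1 and KI replicate 2 were high for both genes, an order that runs across the genotypes and that Mal and Cnp also showed in oligodendrocytes. Cnp had 0.114 and 0.0853 UMIs per neuron in WT and 0.0907 and 0.111 in KI, and Cldn11 0.113 and 0.0728 in WT and 0.131 and 0.139 in KI. Mog (0.0471 and 0.0332 in WT, 0.0711 and 0.0591 in KI), Mag (0.0908 and 0.0620 in WT, 0.116 and 0.115 in KI) and Opalin (0.0184 and 0.0137 in WT, 0.0292 and 0.0281 in KI) were higher in both KI libraries per nucleus, as was Cldn11. In CPM this held for Mog, Mag and Opalin, and for 26.5% of all genes tested in neurons. Among the 3, the fold change was highest for Opalin (log2 fold change 0.73, SE 0.26, edgeR adjusted p = 0.169).

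The neuron level per nucleus was a small part of the oligodendrocyte level for some members and a large part for others. As the gate on neurons may lower their level, these shares and the subtraction below may understate free RNA. It came to 2.76% to 5.25% of it for Mobp, 2.99% to 4.86% for Mog and 3.46% to 9.58% for Ermn. Mag lay at 5.28% to 11.9%, Opalin at 4.95% to 13.6% and Mbp at 6.30% to 9.81%. For Cldn11 it was 12.8% to 18.9%, for Mal 17.1% to 20.4%, and for Cnp 28.0% to 32.1%. Cnp and Mal, the members with the highest share in neurons, are those whose WT libraries differed most in oligodendrocytes, and the part of free RNA in that difference was not tested. With the neuron level subtracted, Mog had 0.963 and 1.08 UMIs per oligodendrocyte in WT and 1.95 and 1.16 in KI, and Mal had 0.873 and 0.654 in WT and 0.680 and 0.925 in KI. The order of the libraries stayed as before for both genes. For Opalin, the 0.252 and 0.277 UMIs per oligodendrocyte in WT and 0.284 and 0.207 in KI became 0.233 and 0.263 in WT and 0.255 and 0.179 in KI, so that WT replicate 2 and no longer KI replicate 1 was the highest. The WT libraries of Cldn11 changed places, from 0.594 and 0.568 to 0.482 and 0.496, and those of Ermn were equal at 0.447.

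Mbp was set apart from the reading of free RNA because its level differed between types of neuron. The part of free RNA in Mbp was not tested. Mbp had 0.430 and 0.445 UMIs per neuron in WT and 0.457 and 0.438 in KI, nearly the same in every library, while its oligodendrocyte level differed between them. Dentate gyrus (DG) granule neurons held 0.603 and 0.587 UMIs of Mbp per nucleus in WT and 0.661 and 0.665 in KI, other excitatory neurons 0.413 and 0.464 in WT and 0.449 and 0.423 in KI, and inhibitory neurons 0.336 and 0.246 in WT and 0.322 and 0.333 in KI. The order of the 3 types was the same in all 4 libraries. DG granule neurons held 1.80 (95% exact interval 1.59 to 2.04), 2.39 (2.04 to 2.79), 2.05 (1.79 to 2.37) and 2.00 (1.77 to 2.25) times as much Mbp as inhibitory neurons in WT replicates 1 and 2 and KI replicates 1 and 2. Their mean depth, 5881 to 6970 UMIs per nucleus, lay below that of inhibitory neurons, 6467 to 8123, except in WT replicate 2, where the means were 6569 and 6560. The Mbp gene is known to give, beside the myelin transcripts, golli transcripts that neurons also make, and gene counts do not tell the kinds apart. For no other member did the interval of this ratio lie on 1 side of 1 in all 4 libraries.

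The ratio of the highest to the lowest of the 3 types was 1.80 to 2.39 for Mbp over the 4 libraries. It was 1.05 to 1.48 for Mobp, 1.14 to 1.33 for Mal and 1.13 to 1.73 for Mog, with a median of 1.38 to 1.49 over the 14057 to 14904 genes that had at least 10 UMIs in each type. For Ermn it was 1.15 to 2.07, on 20 to 180 UMIs per type.

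**Figure D5:**
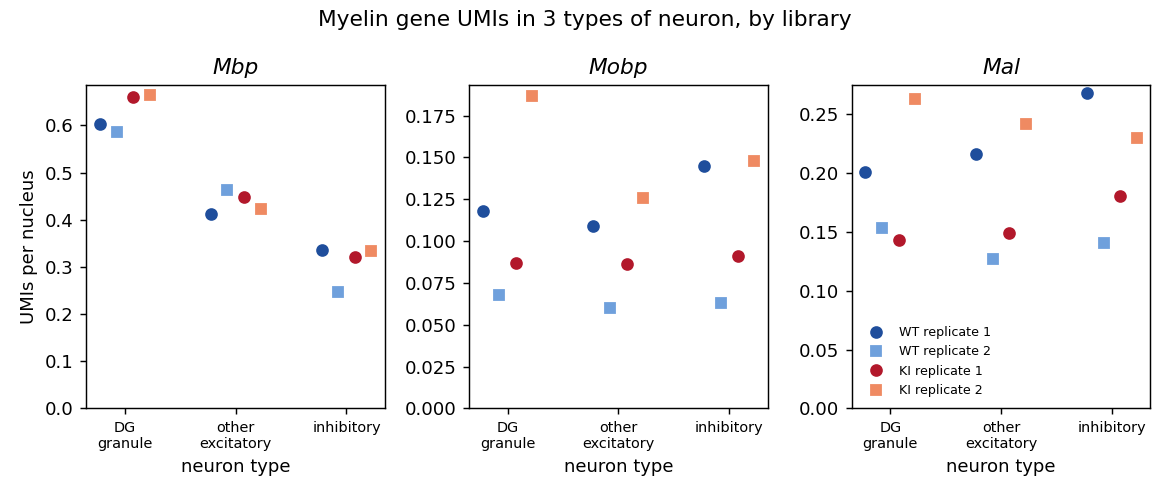
UMIs per nucleus of Mbp, Mobp and Mal in DG granule, other excitatory and inhibitory neurons, 1 point per library, with axes from 0. Mbp falls from DG granule to inhibitory neurons in each library, whereas Mobp and Mal differ more between libraries than between types, by 1.05 to 1.48 and 1.14 to 1.33 times between types.

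Microglia held more member UMIs per nucleus than neurons did in all 4 libraries. The summed members came to 3.29 and 2.96 UMIs per microglial nucleus in WT and 3.68 and 4.68 in KI, against 0.930 to 1.29 per neuron, although microglia were shallower with a mean of 1938 to 2975 UMIs per nucleus. Astrocytes held 1.42 and 0.773 in WT and 1.94 and 1.81 in KI, below the neurons of the same library in WT replicate 2. In both classes the KI libraries were above the WT libraries, on 148 to 307 microglia and 168 to 476 astrocytes per library. Neither class was tested for a change.

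The genotype effect on 2 of 9 members differed between oligodendrocytes and neurons, against 405 of 20012 genes (2.02%) called for this class-by-genotype term. For Opalin the term was -0.74 (SE 0.21, edgeR adjusted p = 0.0211): its level overlapped between genotypes in oligodendrocytes, while in neurons it was 3.22 and 2.15 CPM in the WT mice and 4.04 and 4.58 CPM in the KI mice. For Ermn the term was 0.74 (SE 0.19, edgeR adjusted p = 0.0106), with 8.31 and 3.38 CPM in WT neurons and 2.99 and 4.39 CPM in KI neurons. Neither was stable to the choice of libraries. The Ermn term was 0.00 without WT replicate 1 and 0.16 without KI replicate 1, and neither passed. Opalin lost its call without WT replicate 1 (-1.20), WT replicate 2 (-0.41) or KI replicate 2 (-0.39), and also without doublet removal (edgeR adjusted p = 0.0555) and in nuclei of at least 1000 genes (edgeR adjusted p = 0.129). Neuron counts of both genes may hold free RNA, and its part in these terms was not tested.

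Other genes of myelin were given from lists. Of 20 further myelin protein genes, all tested, 0 were called in oligodendrocytes by edgeR, while 6 had an unadjusted p below 0.05 (3 in each direction) and 1 was called by DESeq2. Gpm6b, a membrane protein, had 1203 and 1243 CPM in the WT mice and 1054 and 980 CPM in the KI mice (log2 fold change -0.19, SE 0.15, edgeR adjusted p = 0.60). It was lower in both KI libraries, which held for 28.2% of genes tested. Gjc3, a connexin of oligodendrocyte gap junctions, was singled out after its values were seen: it had 697 and 733 CPM in the WT mice and 391 and 322 CPM in the KI mice, a log2 fold change of -0.92 (SE 0.17) just outside the threshold (edgeR adjusted p = 0.0501). It passed under 9 of 13 alternatives, with an adjusted p from 1.83e-10 to 0.294, and was the gene called by DESeq2 (adjusted p = 0.00833).

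Of 10 genes of myelin lipid synthesis, 0 were called, while 4 had an unadjusted p below 0.05 (2 in each direction) and 0 were called by DESeq2. Scd2, a desaturase of fatty acids, had 618 and 548 CPM in the WT mice and 708 and 842 CPM in the KI mice (log2 fold change 0.48, edgeR adjusted p = 0.204). Ugt8a, which makes galactosylceramide, the main glycolipid of myelin, had 475 and 436 CPM in the WT mice and 231 and 363 CPM in the KI mice (log2 fold change -0.56, edgeR adjusted p = 0.237). The Ugt8a value was -0.29 without KI replicate 1 and did not pass (edgeR adjusted p = 0.203), and it passed at -0.88 without KI replicate 2 (edgeR adjusted p = 5.43e-10) and at -0.60 with no filter (edgeR adjusted p = 0.0314). Scd2 passed without KI replicate 1 (0.56, edgeR adjusted p = 0.000281) or KI replicate 2 (0.38, edgeR adjusted p = 0.00735). Of 10 lineage transcription factors, 0 were called, with 2 at an unadjusted p below 0.05 and 0 called by DESeq2. The most abundant were Zfp536 with 1620 and 1694 CPM in the WT mice and 1331 and 1863 CPM in the KI mice (log2 fold change 0.01, edgeR adjusted p = 0.987), and Zeb2 with 1745 and 1782 CPM in the WT mice and 1352 and 1532 CPM in the KI mice (log2 fold change -0.22, edgeR adjusted p = 0.526). The medians of the 3 lists, 0.05, 0.20 and 0.32, lay beside 0.01 over all genes.

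Genes of mature oligodendrocyte states were listed too, and the 5 that changed in oligodendrocytes had fold changes of the same sign in neurons, none of them called there. Of 12 listed genes 11 were tested, and 5 were called, 4 higher and 1 lower in KI. Apod, Ptgds and Cryab had been put on the list with their change in these samples known, so their part of the count is no independent evidence. Cdkn1a, an inhibitor of the cell cycle, rose from 17.7 and 10.6 CPM in the WT mice to 108 and 72.7 CPM in the KI mice (log2 fold change 2.73, SE 0.29, edgeR adjusted p = 0.00527). C4b, a complement component, rose from 32.8 and 15.4 CPM to 167 and 120 CPM (log2 fold change 2.61, SE 0.31, edgeR adjusted p = 0.00927). Both passed under 13 of 13 alternatives. Apod, a lipid carrier, was at 649 and 548 CPM in the WT mice and 4924 and 1492 CPM in the KI mice (log2 fold change 2.51, SE 0.46, edgeR adjusted p = 0.0469, and 1.35 without KI replicate 1), and it passed under 8 of 13 alternatives. Cryab, a small heat shock protein, fell from 283 and 184 CPM to 47.8 and 78.6 CPM (log2 fold change -1.87, SE 0.27, edgeR adjusted p = 0.0227). The fifth called gene was Ptgds, a prostaglandin synthase (log2 fold change 1.43, SE 0.17, edgeR adjusted p = 0.00890), which passed under 12 of 13 alternatives. In neurons the log2 fold changes were 1.36 for Ptgds, 2.21 for Apod, 2.27 for C4b and -1.81 for Cryab, with edgeR adjusted p from 0.0623 to 0.138. For these 4 genes the class-by-genotype term of oligodendrocytes against neurons was 0.02 to 0.39 and was not called (edgeR adjusted p from 0.731 to 1.0), so a change particular to oligodendrocytes was not shown for them. In OPC, Ptgds (1.63) and C4b (3.34) were called as well (edgeR adjusted p = 0.0272 for both), C4b on 3 and 4 UMIs in WT. Neither call held with the replicate block (edgeR adjusted p = 0.434 for both), with clusters (0.102 for Ptgds and 0.124 for C4b) or without WT replicate 1 (0.947 for both), and that of Ptgds was also lost without WT replicate 2 (0.0558). The change of Cdkn1a was larger in oligodendrocytes than in neurons, where its log2 fold change was 0.99 (term 1.76, SE 0.32, edgeR adjusted p = 8.81e-06). Neurons may hold free RNA of these genes. Markers of microglia summed to 227 and 213 CPM in WT oligodendrocytes and 266 and 279 CPM in the KI mice, with 8 of 8 detected, and markers of astrocytes to 183 and 205 CPM in the WT mice and 159 and 162 CPM in the KI mice, also 8 of 8. Their part in these changes was not tested.

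The genes whose levels were most like those of the members were found by Pearson's r with the members' mean of log2(CPM + 1) over 32 sums, of 8 classes in 4 libraries, among 3801 other genes of at least 50 CPM in oligodendrocytes. They were Tnfaip6 (r = 0.975), Otud7b (r = 0.971), Adipor2 (r = 0.970), Ppp1r14a (r = 0.967) and Dbndd2 (r = 0.964). The sums of a library share their free RNA and depth, and the values describe the difference between classes. In oligodendrocytes Adipor2, a receptor for adiponectin, had 982 and 1018 CPM in the WT mice and 1654 and 763 CPM in the KI mice, and Dbndd2 365 and 338 CPM in the WT mice and 1008 and 504 CPM in the KI mice. KI replicate 1 was the highest library for both, as for Mbp and Mog. None of the 5 was called, with adjusted p from 0.104 to 0.630 in edgeR's test.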

How the data were processed

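Frozen hippocampi of 2 WT and 2 KI mice gave 1 droplet-based nuclear library each. The deposited tables hold UMI counts for each gene in each barcode, not normalized, which the authors obtained with Cell Ranger 7.0.1 on the mm10 build. Annotation, counting strand and whether intronic reads entered are not given in the sources used here. Groups and replicate numbers came from the sample titles. The members, lists and tests were chosen with earlier results of these data known.

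Nuclei needed 500 genes or more and a mitochondrial share of UMIs under 5%, and barcodes with a Scrublet score above 0.25 (scanpy 1.11.5, expected rate 0.08) were removed as doublets, 3263 in all (4.96% to 6.60% per library). Per 10000 UMIs, oligodendrocytes had at least 20 marker UMIs from 2 or more markers, and committed precursors and OPC at least 32 from 4 or more. These glia had under 64 neuron marker UMIs, and neurons had at least 64 and under 8 of oligodendrocyte markers. Nuclei with 3 or more markers of astrocytes, microglia, endothelial cells, mural cells or fibroblasts were left out of these classes. Nuclei past the limits of both oligodendrocytes and OPC were left out of both. Committed precursors were kept whether or not they also passed the limits of oligodendrocytes or OPC. The limits were set on the marker counts. The gate left 9911 nuclei (19.0%) without a class. A clustering of all nuclei (leidenalg 0.10.2) was used as an alternative. Of gated oligodendrocytes, 96.7% fell in its oligodendrocyte cluster, and 81.1% of that cluster was gated as oligodendrocytes.

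Counts were summed per library and class and tested with edgeR 4.0.16 (R 4.3.3: filterByExpr, TMM, quasi-likelihood, Benjamini-Hochberg, threshold 0.05). The class-by-genotype term had the library as block. Nuclei of 1 mouse were not replicates. Alternatives were DESeq2 1.42.0, library totals, no filter, leaving out each library, clusters, no doublet removal, at least 1000 genes, equal depth and the replicate number as block. Scaling by the number of nuclei, a crossed pairing and those of the term against committed precursors were added after seeing the data. Named genes were every member, up to 4 called genes per list or else the 2 most abundant, and the 5 genes most like the members. An item that this rule takes in is not reported here. Each set of simulated data had 200 changed genes. In oligodendrocytes edgeR recovered 54% of those changed by a log2 of 1 and 92% of those changed by 2 (12767 genes, 25 false calls). These shares were 10% and 63% in committed precursors (2830 genes, 0 false calls) and 28% and 84% in OPC (8920 genes, 4 false calls). They were 51% and 85% in neurons (20652 genes, 28 false calls). For the term between oligodendrocytes and neurons they were 12% and 58% (20012 genes, 12 false calls).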

Additional observations from a re-analysis of the deposited data

Results flagged for a closer look

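The change of Opalin with genotype in oligodendrocytes was lower by 0.74 than that in neurons (a class-by-genotype term of -0.74 on the log2 scale), and that of Ermn was higher by 0.74. The change of Mobp in oligodendrocytes was lower than that in committed precursors, with a term of -2.15. All 3 differed by the test of the term itself, and each lost its call when at least 1 library was left out, as given above. They were found among 27 such terms, 9 members against each of 3 classes.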

How the results depend on the processing

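Counts of called members kept to 0 in neurons under all 13 alternatives. In oligodendrocytes the count was 1 with no filter and 0 to 5 when a library was left out, in committed precursors 1 with no filter, 1 with the replicate block, 1 at equal depth and 0 to 1 when a library was left out, and in OPC 1 with no filter and 0 to 4 when a library was left out. Replicate numbers tie no mice in the labels, and the correlation of replicate deviations was -0.073 in oligodendrocytes, 0.091 in committed precursors, -0.132 in OPC and 0.000 in neurons. A crossed pairing in OPC, added after seeing the data, called 3 members and 240 genes. The 98 genes called in oligodendrocytes became 806 with no filter, 221 with the replicate block, 46 at 1000 genes or more per nucleus, 53 at equal depth, 62 when scaled by nuclei and 49 to 2854 when a library was left out, the highest without KI replicate 2. Over all alternatives the genes called ran from 0 to 80 in committed precursors, 0 to 408 in OPC (the highest without KI replicate 2) and 2 (library totals) to 7235 (without KI replicate 2) in neurons, where DESeq2 called 1598, the replicate block 1096 and scaling by nuclei 2041. The 405 genes of the term against neurons became 72 (without WT replicate 2) to 1269 (without KI replicate 2), and the 14 against committed precursors 0 (without WT replicate 2) to 44 (without KI replicate 2). The count of myelin protein genes was 1 with DESeq2, library totals, the replicate block, clusters, no doublet removal or scaling by nuclei, 3 with no filter and 0 to 8 when a library was left out. For lipid synthesis it was 2 with no filter and 0 to 6 when a library was left out, for transcription factors 2 and 0 to 7, and for state genes 8 and 4 to 8. The 2 members with a different effect in oligodendrocytes and neurons became 1 without doublet removal or at 1000 genes or more, and 0 to 3 when a library was left out.

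The difference in the share of oligodendrocytes, -0.164 percentage points in KI, was 0.37 with clusters and -4.96 to 4.63 when a library was left out. Of 599 values of single genes under alternatives, 496 kept their direction and their side of the threshold, 33 passed it anew, 17 lost their call and 53 changed sign, of which 27 with a library left out. None of the values that changed sign had been called. With other settings, log2 fold changes turned to -0.008 (library totals) and -0.022 (by nuclei) for Mag in oligodendrocytes. For Opalin there they were -0.002 with DESeq2, -0.073 with library totals, -0.025 with no filter, -0.028 with the block, -0.016 with clusters and -0.089 by nuclei, and for Zfp536 -0.053 with library totals, -0.022 with no filter, -0.004 with the block, -0.027 with clusters and -0.056 by nuclei. In committed precursors Mbp turned to -0.08 with library totals, -0.007 at 1000 genes or more and -0.06 by nuclei, and Cnp to -0.018 with library totals and -0.045 at equal depth. In OPC Cnp turned to 0.014 with the block, 0.066 without doublet removal, 0.131 at equal depth and 0.033 with the crossed pairing, and Ermn to -0.051 with library totals and -0.031 by nuclei. In neurons Mbp and Cnp turned to 0.033 and 0.023 by nuclei. The cause of these changes was not tested.

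When a library was left out, values ran in oligodendrocytes from -0.109 to 0.718 for Mbp, -0.126 to 0.305 for Mobp, -0.218 to 0.291 for Mag, -0.339 to 0.245 for Opalin, -0.076 to 0.403 for Mal, -0.187 to 0.509 for Ermn and -0.217 to 0.204 for Zfp536. In committed precursors they ran from -0.377 to 0.51 for Mbp, -0.146 to 0.8 for Mag, -0.036 to 0.242 for Cnp and -1.06 to 0.217 for Mal, and in OPC from -0.416 to 0.591 for Cnp and -0.335 to 0.667 for Ermn. In neurons they ran from -0.126 to 0.002 for Mbp, -0.257 to 0.868 for Mobp, -0.346 to 0.249 for Cnp, -0.46 to 0.52 for Mal and -1.138 to 0.179 for Ermn. Library totals moved the median of all genes to -0.091 in committed precursors and -0.101 in OPC, from 0.013 and 0.007. No cluster of committed precursors was found, so clusters gave no value there.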
